A study of Mus musculus with 15 samples.

Results

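The insulin-like growth factor (IGF) axis was examined in mouse left ventricle through 10 genes: the ligands Igf1 and Igf2, the receptors Igf1r and Igf2r, and the binding proteins Igfbp2 to Igfbp7. Members were the probe sets, groups of short probes that report 1 transcript, whose annotation names a single one of these genes. This gave 14 probe sets for 9 of the 10 genes, out of 8251 genes with such a probe set on the array. Igfbp5 had none, because its probe set is annotated to Tmem119 as well. The 15 arrays fall into 4 groups: 3 hearts of females and 3 hearts of males operated with a procedure labelled TAC, and 3 hearts of female and 6 hearts of male sham controls. The series is about cardiac hypertrophy under pressure overload. The sources used here do not give strain, age or the time after the operation, nor whether each heart came from a separate animal. The p-values therefore measure only the spread between these samples.

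The IGF ligands are small secreted hormones that act on the receptor tyrosine kinase IGF1R, which signals through insulin receptor substrates, phosphatidylinositol 3-kinase and AKT to protein synthesis and cell survival. IGF2R, which also sorts lysosomal enzymes, takes up IGF2 and delivers it for degradation. The IGF binding proteins hold the ligands in plasma and tissue and set how much reaches the receptor, and in the heart this axis is known for its part in the growth and survival of cardiomyocytes.

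The labels were checked with genes outside the axis. Xist, the RNA of X inactivation, lay between 20.6 and 39.1 intensity units in the 6 female hearts and at 3.81 or less in the 9 male hearts. Nppa, the atrial natriuretic peptide gene, lay between 1045 and 2549 units in TAC hearts and between 111 and 307 units in sham hearts. Of the 10 cardiomyocyte markers with a probe set, 0 were below the floor of 20 units on all arrays. Myl7 and Myl4, light chain genes abundant in atria, were also above it, at 101 to 250 and 50.3 to 256 units in TAC hearts and at 42.2 to 257 and 31.3 to 269 units in sham hearts. Their part in the results below was not tested. One array stood apart in brightness: female TAC 1 had the lowest median intensity (21.2 units, against 23.7 to 26.7 on the other arrays). It also had the most probe sets below the floor (48.4%, against 42.4% to 45.2%). Its mean correlation with the other arrays was the lowest only by a little (0.936, against 0.938 to 0.957).

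No IGF axis probe set passed the test for an effect of TAC. Values were floored at 20 units and put on the log2 scale, and 12 of the 14 probe sets, standing for 9 genes, were among the 60% with the highest mean that were tested. In limma, 0 of the 12 were called at an adjusted p under 0.05 for the effect averaged over the sexes, against 0.322% of all 7453 probe sets tested. At an unadjusted p under 0.05, limma gave 2 of the 12 (7.51% of all probe sets): 2 higher after TAC, where 2.86% of all were, and 0 lower, where 4.66% of all were. The median log2 change of the 12 was 0.00 (6 higher, 6 lower), and that of all probe sets was -0.03, with 41.8% of them above 0. Over both sexes, the TAC and sham arrays overlapped for each of the 12, and 0.416% of all tested probe sets showed no overlap. In whole ventricle, fewer cells of a type and less RNA per cell cannot be told apart.

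The ligands come first. Igf1, the growth hormone-dependent ligand that the heart also makes locally, had intensities of 196, 193 and 201 units (probe set 95545_at) in the female TAC hearts and 195, 171 and 171 units in the male TAC hearts. It had 230, 202 and 203 units in the female sham hearts, and the male sham hearts ran from 192 through a median of 204 to 215 units. All 3 female TAC hearts thus lay below all 3 female sham hearts, as was so for 5.74% of all tested probe sets. The nearest values differed by about 1 unit, and the male groups overlapped. The log2 change averaged over the sexes was -0.14 ± 0.08 (SE), or 0.904-fold with a 95% interval of 0.803 to 1.02 (limma adjusted p = 0.742). 

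This probe set was one of the steadiest on the arrays. Its log2 SD within groups was 0.08, where the median of all tested probe sets was 0.24, and 0.174% of them had an SD as low or lower. The other Igf1 probe set, 95546_g_at, varied more, with an SD of 0.33. It averaged 35.0 ± 11.2 units (SD, n = 3) in female TAC and 36.4 ± 0.53 units (n = 3) in female sham hearts, and 35.4 ± 3.66 units (n = 3) in male TAC and 31.6 ± 7.09 units (n = 6) in male sham hearts. Its log2 change was 0.04 ± 0.16 (limma adjusted p = 0.976), and that direction turned in 4 of the 15 runs without 1 array. Over the 9 sham arrays the pair of Igf1 probe sets had no detectable relation (Pearson r = 0.00195, -0.17 without the 2 arrays farthest from the median, Spearman rho = -0.27, exact permutation p = 0.995 and 0.4933, adjusted p = 0.996 and 0.846 over 66 pairs).

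Igf2, the fetal growth factor whose gene is imprinted, averaged 288 ± 39.6 units (SD, n = 3) in female TAC and 303 ± 15.7 units (n = 3) in female sham hearts (probe set 98623_g_at). In males the means were 274 ± 38.8 units (n = 3) after TAC and 296 ± 28.6 units (n = 6) after sham. The ranges of TAC and sham hearts overlapped in both sexes, and the log2 change was -0.10 ± 0.10, with an interval of 0.804-fold to 1.08-fold (limma adjusted p = 0.879). A further Igf2 probe set, 98622_at, was below the floor on all 6 TAC arrays and on 6 of the 9 sham arrays and was left out by the filter.

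Among the receptors, Igf1r had the larger change. Igf1r, the signalling receptor, had 64.2, 77.2 and 61.8 units in the female TAC hearts and 50.4, 66.6 and 53.1 units in the female sham hearts. Male TAC hearts had 56.0, 68.1 and 70.5 units, and male sham hearts ran from 47.0 through a median of 53.1 to 58.0 units. A single female sham heart and a single male TAC heart made the groups overlap. The log2 change was 0.28 ± 0.10 (1.21-fold, 95% interval 1.04 to 1.41), with an unadjusted p of 0.0155 and a limma adjusted p of 0.480. The estimates in the sexes were close, 0.26 ± 0.15 in females and 0.29 ± 0.13 in males, and their difference was -0.03 with an interval of -0.46 to 0.40.

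Igf2r, the clearance receptor, averaged 22.7 ± 3.39 units (SD, n = 3) in female TAC and 25.3 ± 4.85 units (n = 3) in female sham hearts. Male TAC hearts averaged 29.5 ± 1.26 units (n = 3) and male sham hearts 28.8 ± 6.44 units (n = 6). These values are near the floor, and 1 TAC array and 1 sham array were below it. The log2 change was -0.04 ± 0.13 (limma adjusted p = 0.966), and its direction turned with median centring or quantile normalization.

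**Figure D1:**
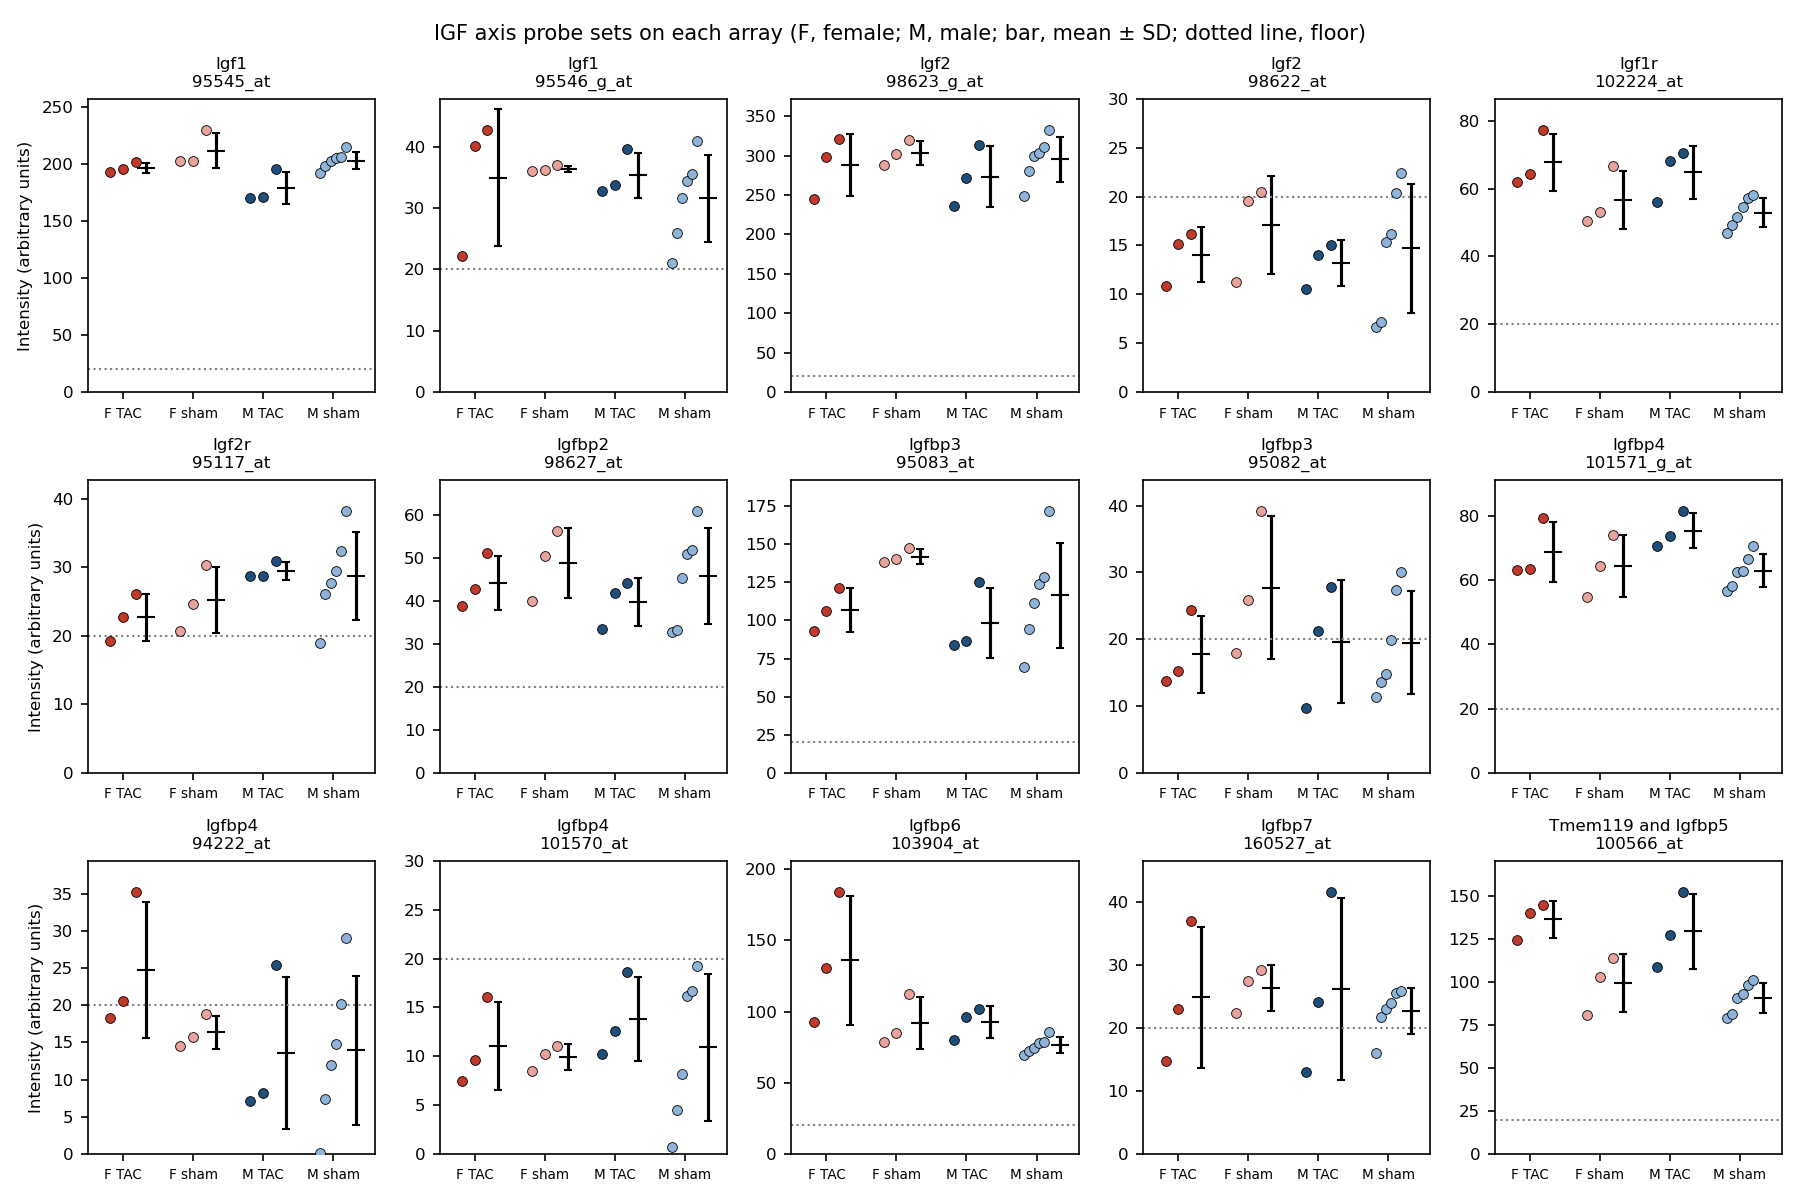
Intensity on each array (vertical axes, arbitrary units, starting at 0) for the 14 IGF axis probe sets and the one annotated to both Tmem119 and Igfbp5. Points are arrays, bars are the mean ± SD of each group and the dotted line is the floor of 20 units; Igf1 (95545_at) is tightly grouped at 171 to 230 units, and Igfbp6 is spread widest in female TAC hearts, from 93.0 to 184 units.

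Of the binding proteins, Igfbp6 had the largest change among the 12 tested probe sets. Igfbp6, which prefers IGF2 as its ligand, had 93.0, 184 and 131 units in the female TAC hearts and 78.5, 113 and 85.1 units in the female sham hearts. Male TAC hearts had 102, 80.2 and 96.3 units, and male sham hearts ran from 69.5 through a median of 76.5 to 85.9 units. Of the 3 TAC hearts of each sex, 2 exceeded every sham heart of that sex and 1 did not. The log2 change averaged over the sexes was 0.40 ± 0.14 (1.32-fold, 95% interval 1.08 to 1.61), with an unadjusted p of 0.00966 and a limma adjusted p of 0.418. It was 0.52 ± 0.21 in females and 0.27 ± 0.18 in males, and the difference between the sexes was 0.25 with an interval of -0.32 to 0.83. Without female TAC 2, the array with 184 units, the averaged change was 0.28. Without female TAC 1, the dimmest array, it was 0.52 with an adjusted p of 0.0893, the lowest of a range up to 0.726 over its alternatives.

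The genes whose log2 values were most like those of Igfbp6 over the 15 arrays, out of all tested probe sets of other single genes, were Ints3 (Pearson r = 0.881, Spearman rho = 0.44), Nfe2l1 (r = 0.860, rho = 0.72) and Art5 (r = 0.856, rho = 0.69). They were picked as the highest correlations, so no p is given. Without the 2 arrays farthest from the median of Igfbp6, r was 0.361, 0.626 and 0.539, so that the first of these rests largely on those arrays.

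The sequences around the start sites of Igfbp6 and Igf1r are shown because these genes had the smallest p of the tested members. They are RefSeq windows of the assembly GRCm38.p6, from 250 bases before to 50 after the start, 5′ to 3′ on the strand of the gene. Capitals mark GGGCGG, the core of the GC box. They also mark TATAAA, the core of the TATA box, wherever it lies in the window, so that a match need not be a working TATA box. Both strands were searched, and a match on the opposite strand is printed as its reverse complement. The motifs do not overlap each other.
Igfbp6 (chr15:102143936-102144235, + strand): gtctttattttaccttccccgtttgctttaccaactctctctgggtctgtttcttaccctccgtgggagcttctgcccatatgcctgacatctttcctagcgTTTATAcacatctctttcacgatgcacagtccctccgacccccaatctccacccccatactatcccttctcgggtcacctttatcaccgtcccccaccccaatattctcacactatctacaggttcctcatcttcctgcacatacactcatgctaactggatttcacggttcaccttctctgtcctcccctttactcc
Igf1r (chr7:67952007-67952306, + strand): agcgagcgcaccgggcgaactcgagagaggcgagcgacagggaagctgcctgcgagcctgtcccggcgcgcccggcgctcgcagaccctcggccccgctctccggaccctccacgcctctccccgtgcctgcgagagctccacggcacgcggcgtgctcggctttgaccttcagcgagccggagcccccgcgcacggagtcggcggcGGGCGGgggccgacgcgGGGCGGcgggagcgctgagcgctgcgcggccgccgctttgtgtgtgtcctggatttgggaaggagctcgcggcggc
The Igf1r window is 76.0% G or C, higher than 96.9% of all promoter windows, and holds 48 CG dinucleotides and 2 GC boxes. The Igfbp6 window is 49.7% G or C with 8 CG dinucleotides, and holds 1 TATAAA on the opposite strand and no GC box. Over the 14 windows of the 10 genes, the median was 64.0% G or C, against 52.7% over all 32851 windows. GGGCGG was found in 6 of the 14 (42.9%) and in 35.7% of all windows, and TATAAA in 2 of the 14 (14.3%) and in 13.6% of all. These letters describe the windows and say nothing about which factors bind there.

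Igfbp3, the main carrier of IGFs in blood, was the largest change downwards. It had 93.3, 106 and 122 units in the female TAC hearts and 138, 148 and 140 units in the female sham hearts (probe set 95083_at), with no overlap. In females, 5.74% of all tested probe sets were lower without overlap. Male TAC hearts had 83.9, 86.4 and 125 units, within the range of the male sham hearts, which ran from 69.6 through a median of 118 to 172 units. The log2 change was -0.31 ± 0.17 (0.804-fold, 95% interval 0.631 to 1.02, limma adjusted p = 0.715). Its dimmer probe set, 95082_at, was below the floor on 3 of 6 TAC arrays and 5 of 9 sham arrays and had -0.17 ± 0.15, which moved to -0.04 without female sham 3, to -0.28 without female sham 2 and to -0.32 with a lower floor.

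Igfbp4, an inhibitory binding protein cleaved by the protease PAPP-A, averaged 68.7 ± 9.25 units (SD, n = 3) in female TAC and 64.3 ± 9.58 units (n = 3) in female sham hearts (probe set 101571_g_at). Male TAC hearts had 70.7, 81.3 and 73.8 units, and male sham hearts ran from 56.6 through a median of 62.6 to 70.7 units. The male groups did not overlap, but the lowest TAC value and the highest sham value were the same to 3 digits. In males, 1.62% of all tested probe sets were higher without overlap. The log2 change was 0.18 ± 0.10 (0.979-fold to 1.31-fold, limma adjusted p = 0.740). Of its other probe sets, 94222_at was below the floor on 3 of 6 TAC and 7 of 9 sham arrays, and 101570_at was below it on all 15 arrays.

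Igfbp2, a binding protein abundant in the fetus, averaged 42.0 ± 5.90 units (SD, n = 6) in TAC hearts and 46.9 ± 9.82 units (n = 9) in sham hearts, with a log2 change of -0.16 ± 0.15 (limma adjusted p = 0.863). Igfbp7, a vascular protein that binds IGFs weakly, averaged 25.5 ± 11.6 units (n = 6) in TAC hearts and 23.9 ± 3.84 units (n = 9) in sham hearts. Its TAC hearts reached from 12.9 to 41.5 units and its sham hearts from 15.9 to 29.2 units. Its log2 change of 0.10 ± 0.16 (limma adjusted p = 0.925) turned to -0.05 with a lower floor.

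**Figure D2:**
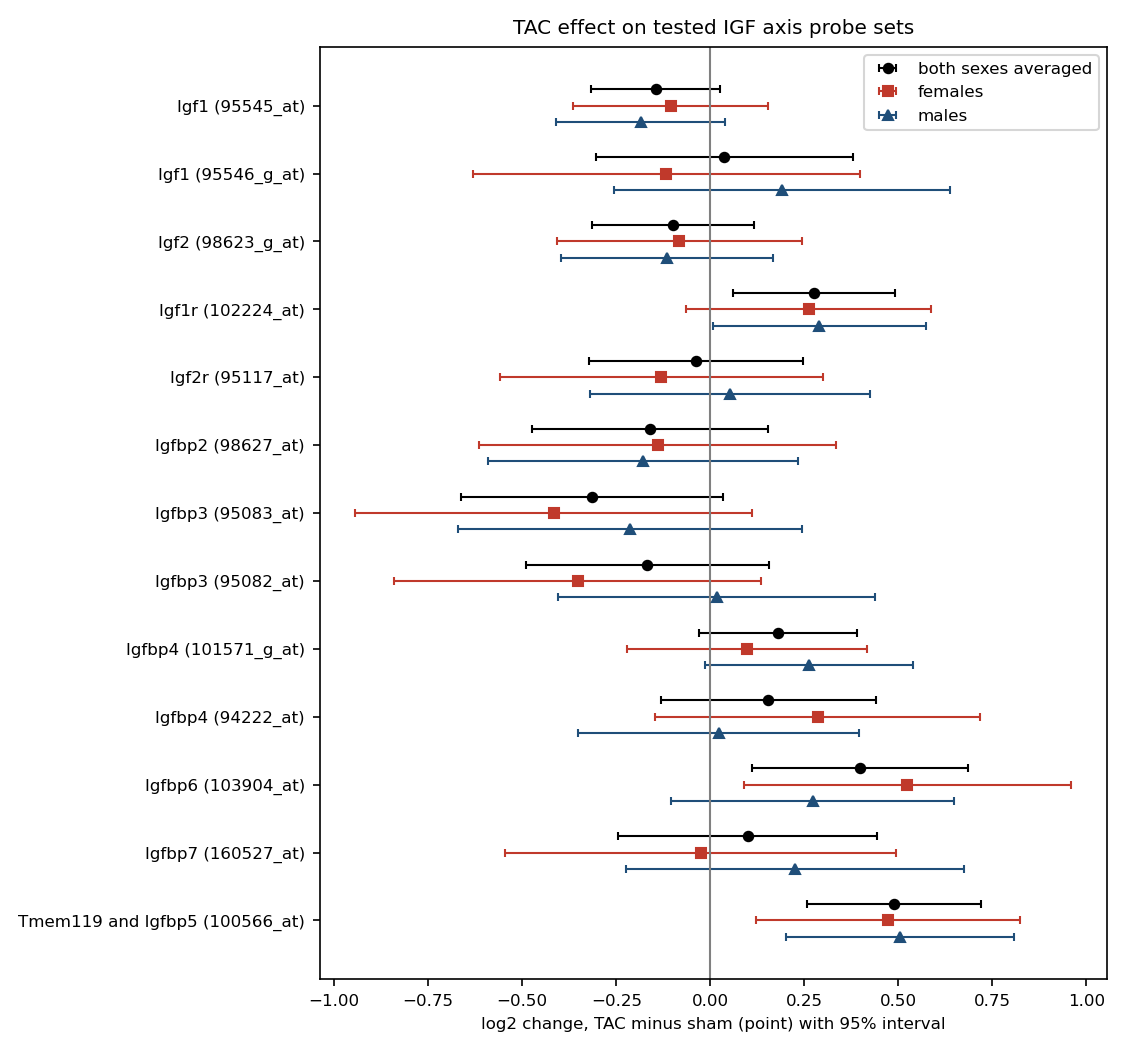
Log2 change (horizontal axis, TAC minus sham) with its 95% interval for each tested probe set, averaged over the sexes (circles), in females (squares) and in males (triangles). The averaged intervals of Igf1r (0.06 to 0.49) and Igfbp6 (0.11 to 0.69) lie above 0, as does that of the probe set annotated to both Tmem119 and Igfbp5 (0.26 to 0.72), and none passed after adjustment.

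The probe set annotated to both Tmem119 and Igfbp5, 100566_at, changed more than any member, and neither gene can be named from it. It had 125, 145 and 140 units in the female TAC hearts and 103, 80.9 and 114 units in the female sham hearts. It had 128, 152 and 109 units in the male TAC hearts, and the male sham hearts ran from 79.2 through a median of 92.1 to 101 units. All TAC hearts were above all sham hearts of their own sex, where 3.14% of all tested probe sets were so in females and 1.62% in males. Its log2 change was 0.49 ± 0.11 (1.40-fold, 95% interval 1.20 to 1.65), with a limma adjusted p of 0.0800. It was called in 4 of 10 alternatives and in 1 of 15 runs without 1 array, without male TAC 6, with adjusted p from 0.0149 to 0.308 over these settings.

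The summed intensity of 12 fibroblast markers ran from 1763 to 2695 units in TAC hearts and from 1405 to 1834 units in sham hearts, and female TAC 2, the array with the most Igfbp6, had the highest sum. Most of that sum was Dcn, which averaged 1206.5 of 2153 units in TAC hearts (56.0%) and 835 of 1644 units in sham hearts (50.8%). The 11 markers without Dcn, an alternative added after seeing the data, summed to 838 to 1208 units in TAC hearts and 722 to 917 units in sham hearts, and 3 of the 6 TAC hearts were then above every sham heart, against 5 with Dcn. Of the 10 markers tested, 7 were higher and 3 lower with a median log2 change of 0.40, none was called in limma, and Fap was below the floor on all arrays. Mfap5 had the largest change, 0.77 ± 0.18, and Lum and Dcn, matrix proteoglycan genes, had 0.57 ± 0.12 and 0.51 ± 0.13. The other markers that were higher lay between 0.11 (Pdgfra) and 0.44 (Col1a1). The 3 lower markers, Thy1, Col1a2 and Ddr2, had -0.29 ± 0.12, -0.03 ± 0.08 and -0.03 ± 0.10. These markers were singled out after their values were seen. Medians were 0.00 for 9 endothelial markers, -0.14 for 6 smooth muscle and pericyte markers and -0.02 for 7 macrophage and leukocyte markers. They were -0.05 for 10 cardiomyocyte, -0.02 for 3 atrial, -0.06 for 4 red blood cell and -0.15 for 2 fat cell markers, and Nppa was the only called gene of these lists. Kdr, Myh11, Fabp4, Adgre1, Ptprc, Itgam and Fcgr3, of the endothelial, muscle, fat and leukocyte lists, were below the floor on all arrays. The part of fibroblast content in the values of Igfbp6, Igf1r and probe set 100566_at was not tested.

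**Figure D3:**
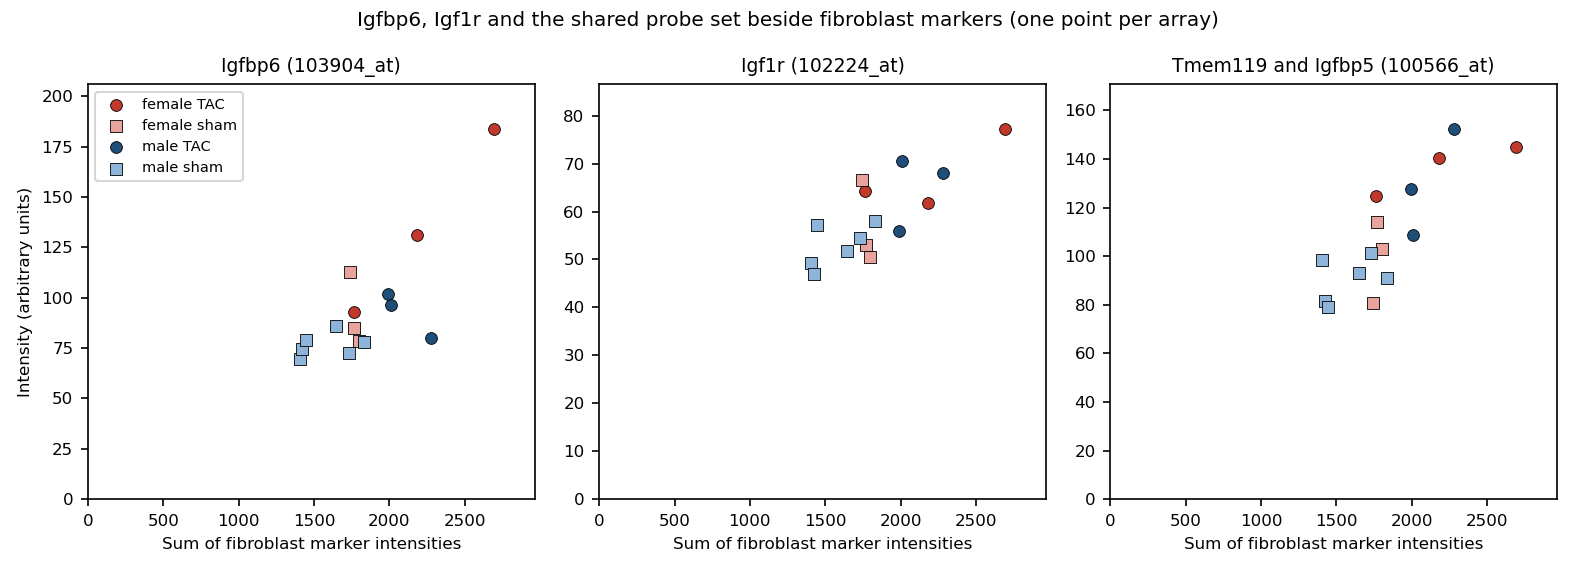
Intensity of Igfbp6, Igf1r and the probe set annotated to both Tmem119 and Igfbp5 (vertical axes, arbitrary units) against the summed intensity of 12 fibroblast markers (horizontal axes) on each of the 15 arrays. Circles are TAC and squares are sham hearts; 5 TAC arrays lie to the right of all sham arrays and female TAC 1, at 1763 units, lies among them.

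Within each sex no member passed the test either. In females 0 of 12 probe sets were called (0.0805% of all) and 1, Igfbp6, had an unadjusted p under 0.05 (4.59% of all). The female TAC and sham groups did not overlap for 2 of 12, Igf1 and Igfbp3, both lower with TAC, where 8.88% of all tested probe sets did not overlap and 5.74% were lower without overlap. In males 0 of 12 were called (0.134% of all) and 1, Igf1r, had an unadjusted p under 0.05 (6.2% of all). The male groups did not overlap for 1 of 12, Igfbp4, higher with TAC, against 3.17% of all without overlap and 1.62% higher without overlap.

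No sex difference passed either. The effect of TAC differed between the sexes for 0 of 12 probe sets in limma, adjusted or at an unadjusted p under 0.05 (0% and 2.56% of all), and 8 of the 12 had the same sign in both sexes. Female and male sham hearts differed for 0 of 12 at either threshold (0% and 4.71% of all). Among TAC hearts 0 of 12 were called (0% of all) and 1 had an unadjusted p under 0.05 (4.21% of all). That one was Igfbp6, which averaged 136 ± 45.6 units (SD, n = 3) in female TAC and 92.8 ± 11.3 units (n = 3) in male TAC hearts, a log2 difference of 0.50 ± 0.21 (unadjusted p = 0.0262, limma adjusted p = 0.999).

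No relation between members passed the test in the sham hearts. Over the 9 sham arrays, 66 pairs among the 12 tested probe sets were compared, of which 31 had a positive Pearson r and 4 an unadjusted exact permutation p under 0.05. After Benjamini-Hochberg adjustment 0 passed, with a smallest adjusted p of 0.688.

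Other genes of the pathway were taken from 2 lists. In the list of IGF supply and binding, 8 of 15 genes were tested, of which 1 was higher, 7 were lower and 0 were called in limma, with a median log2 change of -0.13. Among all tested probe sets, 41.8% had a log2 change above 0 and the median was -0.03. Ghr, the growth hormone receptor that drives IGF1 production in the liver, ran from 22.9 through a median of 27.7 to 31.3 units in TAC hearts and from 26.7 through a median of 38.4 to 41.0 units in sham hearts. Its log2 change was -0.30 ± 0.11 (limma adjusted p = 0.477). Stc2, an inhibitor of PAPP-A, had -0.21 ± 0.10 (adjusted p = 0.645) and was below the floor on 4 of 6 TAC arrays. Furin, a protease that processes IGF precursors, had -0.20 ± 0.11 (adjusted p = 0.707), and the protease gene Htra1 had -0.12 ± 0.11 (adjusted p = 0.856).

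In the list of IGF receptor signalling, 24 of 38 genes were tested. The log2 change was above 0 for 6 and below 0 for 18 of them, and its median was -0.06. Of all tested probe sets, 41.8% were above 0, and their median was -0.03. One of the 24, Pik3ca, fell and was called, against 0.322% of all tested probe sets. Pik3ca, the catalytic alpha subunit of phosphatidylinositol 3-kinase, had 17.4, 17.1 and 25.0 units in the female TAC hearts and 23.7, 18.3 and 21.9 units in the male TAC hearts. In sham hearts it ran from 27.6 to 33.8 units in females and from 26.1 through a median of 38.1 to 42.1 units in males. All TAC hearts were thus below all sham hearts, and 0.416% of all tested probe sets showed no overlap in either direction. The nearest values were close, 25.0 units in female TAC 3 and 26.1 units in male sham 4. The log2 change was -0.59 ± 0.12 (limma adjusted p = 0.0459). On 3 of the 6 TAC arrays it was below the floor, and the call held in 3 of 9 alternatives and in 2 of 15 runs without 1 array (without male sham 4 or female TAC 3), with limma adjusted p from 0.0110 to 0.328. The stricter filter left Pik3ca out, so that setting is not among the 9. The replicate number as a block ended it. The limma adjusted p was 0.0575 with only the female numbers blocked and 0.328 with all of them blocked. Deviations of same-numbered female hearts correlated at 0.117 to 0.270.

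The remaining signalling genes of smallest p were not called. Akt1, the kinase downstream of phosphatidylinositol 3-kinase, had -0.22 ± 0.11 (limma adjusted p = 0.696). Eif4e, the cap-binding translation factor, had -0.22 ± 0.11 (limma adjusted p = 0.720). Its TAC hearts, at 11.8 to 18.4 units, were all below the floor, as were 3 of the 9 sham hearts. All its TAC values were therefore set to the floor, so its change, SE and p rest on the floor and the sham values. Irs2, an adaptor between the receptor and the kinase, had 0.24 ± 0.13 (adjusted p = 0.741), with 36.8 to 71.3 units in TAC and 34.3 to 54.8 units in sham hearts.

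**Figure D4:**
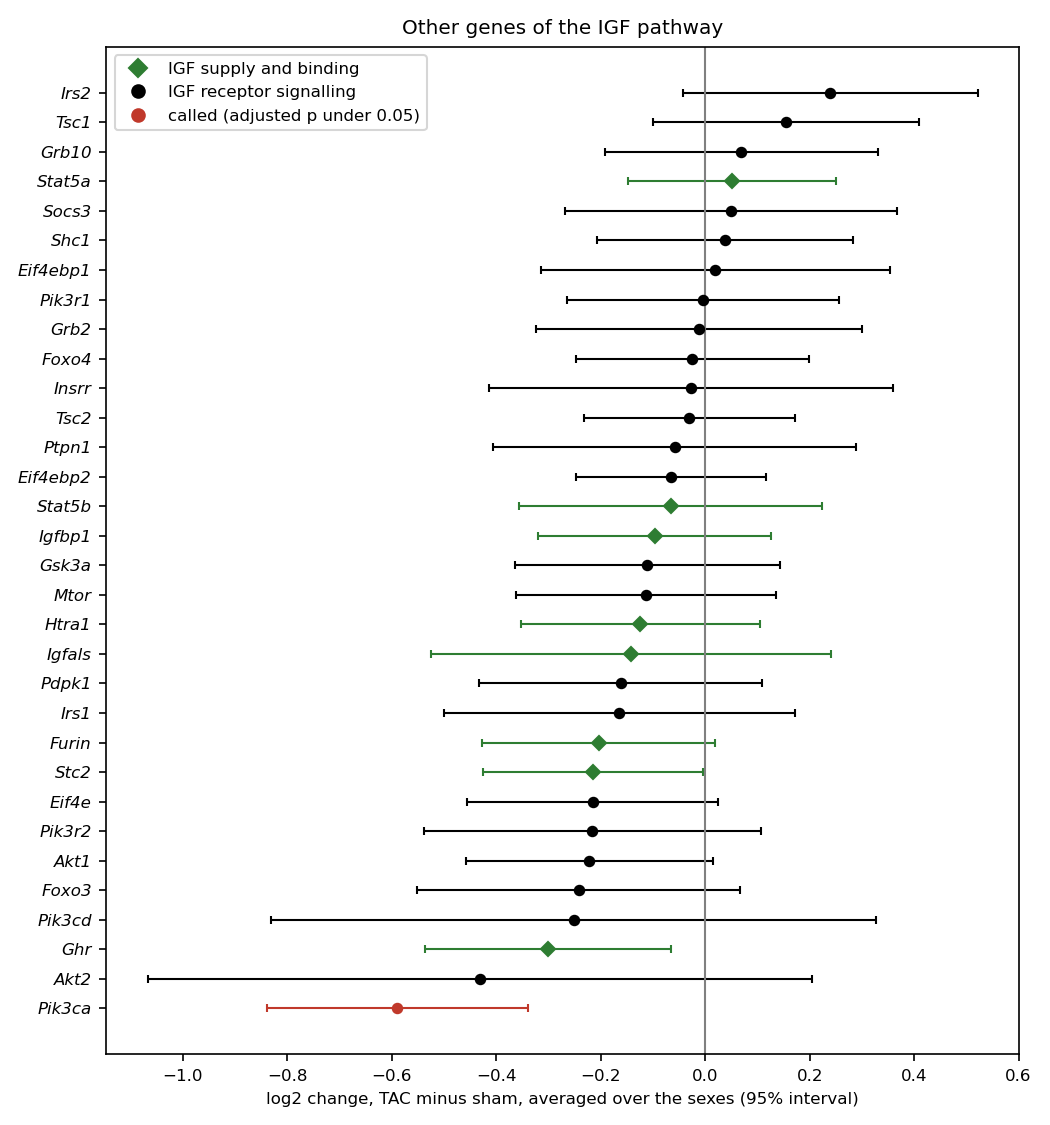
Log2 change (horizontal axis, TAC minus sham, averaged over the sexes) with its 95% interval for the 32 tested genes of both pathway lists, ordered by size. Diamonds are genes of IGF supply and binding and circles are genes of receptor signalling; Pik3ca, at -0.59, is the called gene, and the interval of Akt2 is the widest, from -1.07 to 0.21.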

How the data were processed

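The authors deposited 1 table of probe-set intensities on a linear scale, 12488 probe sets on 15 arrays; the software, background correction and scaling behind it are unknown here. Array medians lay between 21.2 and 26.7 units and that level was kept. The platform annotation named the probe sets, and RefSeq gave current symbols through Entrez numbers (10817 of 12422 matched). The 66 control probe sets were left out, values floored at 20 units (the 30th percentile was 11.9) and log2 taken. Between 42.4% and 48.4% of an array lay below the floor, which shrinks changes of dim genes. The 60% with the highest mean were tested in 1 model of 4 group means with limma 3.58.1 in R 4.3.3, adjusted by Benjamini-Hochberg over 7453 probe sets, after a test on simulated data. The changes simulated there were larger than any found for a member, so that test does not cover changes of member size. Precision is limited by how many arrays there are: the median SE of an averaged log2 change was 0.13. Members, gene lists and naming rules (all members, called genes and the 4 of smallest p in each pathway list, the 3 genes most like the member of smallest p) were chosen with earlier results of these data known. A list used the tested probe set of highest mean for each gene. TAC and sham titles share numbers 1 to 6. Same-numbered deviations from the group means correlated at 0.244, 0.270 and 0.117 in females and 0.0641, -0.0828 and 0.0136 in males. The female values were all above the limit of 0.1 used for pairing, and the male values were below it. Hearts of different numbers were not compared, so these correlations have no reference. The main model had no block all the same, so its p-values treat same-numbered hearts as independent. The numbers were used as a block only in alternatives.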

Additional observations from a re-analysis of the deposited data

How the results depend on the processing

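The number of IGF axis probe sets called stayed at 0 for each of the 6 contrasts under each alternative (quantile normalization, median centring, a lower floor, an offset, no filter, a stricter filter, trended and robust eBayes, array weights, and for some contrasts the replicate block or a fit of the groups compared) and in the 15 runs without 1 array. A fit with a replicate block, for all numbers or, added after seeing the data, for the female numbers only, gave 0 as well, and the block changed no call of a member. These counts of 0 were not always out of 12 member probe sets. The stricter filter left 7 to test, and the lower floor or the offset left 11. Without the filter the count still covered 12. The number called among all probe sets moved more: for the averaged effect it was 24 in the main analysis, 45 with quantile normalization or median centring, 68 with array weights, 13 without the filter, 12 with the lower floor and 8 with the block for all numbers.

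The direction of 3 dim or flat probe sets was not settled, and the cause was not tested. Igf2r (-0.04) turned to 0.0149 with quantile normalization and 0.0179 with median centring, and to 0.0318, 0.0037 and 0.00826 without female sham 3, male sham 8 or female TAC 1, in a range from -0.106 to 0.0318 over the runs without 1 array. Igf1 95546_g_at (0.04) turned to -0.0176, -0.0266, -0.0494 and -0.00424 without male sham 9, female TAC 1, female TAC 3 or male TAC 6, in a range from -0.0494 to 0.188. Igfbp7 (0.10) turned to -0.0512 with the lower floor, and to -0.0313 and -0.0533 without female TAC 2 or male TAC 5, in a range from -0.0533 to 0.210. Median centring moved Igf1 95545_at to -0.0858 and Igf2 to -0.0402. The other 9 tested probe sets kept their sign under each of these settings in which they were tested. Signals near the floor limit Igf2r, Igfbp7, Igfbp3 95082_at and Igfbp4 94222_at most.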

Other observations

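Akt2, a kinase of the insulin and IGF pathway, was singled out after its values were seen. Its probe set 160558_at had 7.75 units in female TAC 1 and between 85.2 and 137 units on the other 14 arrays. Female TAC 1 is also the array of lowest median intensity, and the Akt2 log2 change of -0.43 ± 0.30 (limma adjusted p = 0.808) includes that array. The cause of this low Akt2 value was not tested.

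The sex difference of Ghr was likewise singled out from the pathway genes after the values were seen. Ghr had a log2 change of -0.07 in females and -0.54 in males. The difference between them had an unadjusted p of 0.0495 in limma, which does not pass after adjustment over all probe sets. Of all tested probe sets, 2.56% had an unadjusted p under 0.05 for this difference.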
